A study of Mus musculus with 6 samples.

Results

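Cycling plasmablasts were taken from 6 single cell RNA-seq libraries of mouse splenic cells labelled as germinal center (GC) B-cells. They are cells with an intermediate load of immunoglobulin RNA that also carry transcripts of dividing cells. A barcode was kept when it had at least 500 detected genes and less than 10% mitochondrial unique molecular identifiers (UMIs, each standing for 1 captured RNA molecule). A member then had 8% to less than 50% of its UMIs in immunoglobulin genes or *Jchain*, at least 2 *Xbp1* UMIs, no *Cd3d*, *Cd3e* or *Cd3g* UMI, and at least 2 detected genes of the 6 division genes *Top2a*, *Mki67*, *Pclaf*, *Rrm2*, *Ube2c* and *Tyms*. This gave 232 members among 21568 cells that passed the filter, out of 22939 barcodes.

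The labels give 3 libraries as Cgamma1-Cre WT Control (WT here) and 3 as Cgamma1-Cre Smc3 +/- (HET here), numbered as replicates 1 to 3 in each genotype. Both genotypes carry the Cre recombinase in the *Ighg1* locus, a locus that B-cells transcribe as they switch class, so Cre itself is common to the 6 libraries. HET cells have 1 targeted allele of *Smc3*, a core ATPase of the cohesin ring that folds chromosomes into loops. The study's methods describe splenic cells of 6 *Smc3* wild-type and 3 *Smc3* heterozygous mice, taken after immunization with sheep red blood cells. How these mice were divided over the libraries was not stated. Recombination of the allele in single members was not measured. The p-values treat libraries as the replicates.

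A plasmablast is a B-cell that has started to secrete antibody and still divides, between the activated B-cell and the resting plasma cell. Prdm1, Irf4 and Xbp1 are the transcription factors that install this state, while Pax5, Bcl6 and Bach2 hold the B-cell program. Secretion needs a large endoplasmic reticulum (ER): chaperones fold antibody chains, oxidoreductases join them by disulfide bonds, and a disposal system removes what fails to fold. The class of the heavy chain (IgM, IgD, IgG, IgA or IgE) is set by switch recombination and bears on where the antibody, and often the cell, goes.

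There were 15, 33 and 28 members in WT replicates 1 to 3 and 32, 84 and 40 in HET replicates 1 to 3. They made up 1.47%, 0.636% and 0.630% of the filtered WT cells and 1.31%, 2.28% and 0.834% of the HET cells. The genotypes overlapped, with a difference of 0.564 percentage points (HET minus WT) and p = 0.3 by an exact two-sided permutation test, in which 3 against 3 libraries cannot go below 0.1. It was 0.161 points without HET replicate 2 (exact permutation p = 0.6). Total UMIs per library ranged from 5223325 to 35354257, and the median member had 10587 to 18990 UMIs by library.

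**Figure D1:**
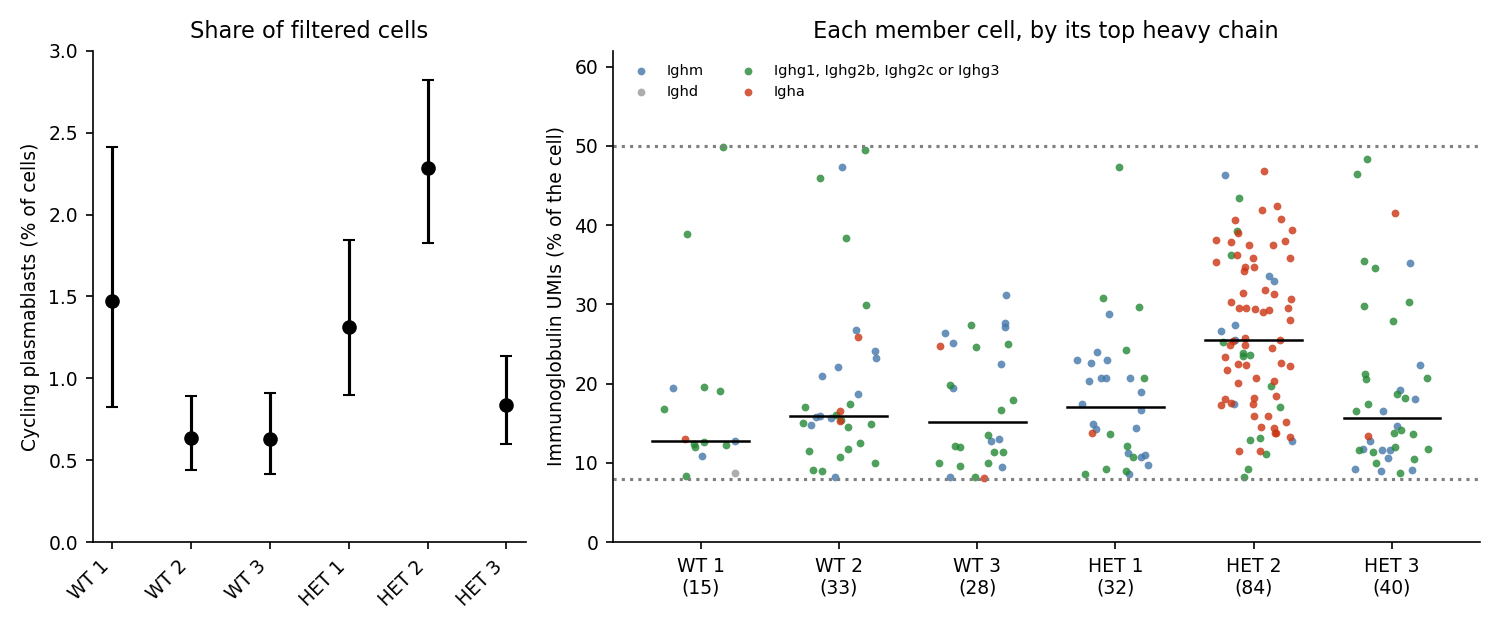
Left, cycling plasmablasts as a percentage of filtered cells in each library, with exact 95% binomial intervals that cover counting error only. Right, the percentage of each member's UMIs in immunoglobulin genes (one point per cell, colored by its most abundant heavy chain gene; black lines are medians, dotted lines the gate at 8% and 50%). HET 2 has the highest median, 25.5%, and most of the Igha cells.

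HET replicate 2 stood apart from the other 5 libraries. Immunoglobulin took 60.5% of all its UMIs against 2.62% to 4.44% elsewhere, and it held 1538 of 1618 plasma cells with at least 50% immunoglobulin RNA. It also held 285 myeloid cells against 3 to 7 elsewhere. The labels give it the same cell type as the others, and whether it came from the same kind of sort was not tested, so genotype and the makeup of this library cannot be told apart in values that rest on it. T cells, which do not make immunoglobulin, also held more of its RNA there, a median of 1.3% against 0.0908% to 0.162%. All T cells of HET replicate 2 had an *Igha* UMI, but their highest immunoglobulin share, 5.35%, was under the 8% of the gate. *Xist* and Y-linked transcripts placed WT replicates 1 and 2 and HET replicate 2 with male mice and the other 3 libraries with female mice. Of the cell barcodes, 255 occurred in more than 1 library, and 4 members had such a barcode, none a member in both. Values without HET replicate 2 are given beside several results that rest on it. Against plasma cells and non-cycling cells mostly the counts of genes are given without it, and not the values of genes and lists.

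The label was described on genes the gate did not read, although genes of secretion move with the immunoglobulin and *Xbp1* that it read. Detection also rises with depth. The median was 10587 to 18990 UMIs in members, 4386 to 6946 in cycling low-immunoglobulin B-cells and 1215 to 2014 in T cells. The percentages below are therefore a description and no test of the label. *Mzb1*, an ER cochaperone of antibody assembly, had a UMI in 100% of members of every library, against 3.33% to 10.4% of T cells. It was also found in 86.7% to 98.5% of cycling low-immunoglobulin B-cells, so presence of a UMI alone does not mark the members. *Hspa5*, the ER chaperone BiP that binds unassembled heavy chains, was found in 100% of members, against 64.5% to 75% of cycling B-cells and 39.0% to 50.7% of T cells. *Manf*, a stress-induced ER protein, was found in 96.4% to 100% of members, against 51.0% to 70.7% and 19.5% to 31.5%. *Sdc1*, the plasma cell surface proteoglycan CD138, had a UMI in 56.0% to 78.6% of members by library but in 0.201% to 1.29% of cycling B-cells. *Prdm1* was detected in 32.1% to 51.5% and *Irf4* in 28.1% to 63.1% of members. *Bcl6* was sparse, found in 1.19% to 7.14% of members against 4.74% to 17.4% of cycling B-cells. *Pax5* was found in 3.03% to 14.3%. The exception among the markers was *Slpi*, which was found in 73.3% to 96.9% of members in 5 libraries but in 45.2% in HET replicate 2.

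Markers of other cell types were summed by list. T cell markers reached 41.3 to 73.8 counts per 1000000 UMIs (CPM) against 6973 to 11064 in T cells. Of the 12 genes *Cd5* and *Trbc1* were at 0 UMIs in all members, while *Cd2* held 7 to 26 and *Trac* 1 to 7 UMIs by library. Monocyte and macrophage markers were at 164 to 391 CPM in members, against 196 to 654 CPM in cycling B-cells and 29222 to 65097 CPM in myeloid cells. Most of these UMIs were *Ctss*, at 43 to 221 by library, and *Lyz2* was at 0 to 2 UMIs in 5 libraries and at 81 in HET replicate 2. Plasmacytoid dendritic cell markers were at 246 to 450 CPM, against 678 to 727 CPM in cycling B-cells, mostly from *Bst2*, *Tcf4* and *Irf8* with *Siglech* at 0. Natural killer cell markers were at 0 to 41.3 CPM in members, mostly *Gzma* and *Prf1*, against 0.284 to 4.83 CPM in cycling B-cells and 567 to 1084 CPM in T cells, with the highest value in HET replicate 2 (16 of 84 cells) and *Ncr1* and *Klrb1c* at 0. Erythroid markers (12.7 to 161 CPM) and B-cell precursor markers (62.8 to 135 CPM, nearly all *Vpreb3*) were below cycling B-cells in each library. Neutrophil-lineage markers were at 0 to 2 UMIs in 5 libraries and at 5399 UMIs (5868 CPM) in HET replicate 2, nearly all in 1 cell. Members held more UMIs than cycling B-cells (median 4386 to 6946). An automated doublet score removed a preset share of cells per library, among them 0 to 2 members. The median member lay at percentile 60.6 to 73.9 of that score by library, against 51.8 to 60.1 for cycling B-cells, and above them in each library. Whether members include doublets was not tested further.

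The gate left cells close to its limits. The 23 members at 8% to 10% immunoglobulin had a median of 20 *Xbp1* UMIs and *Mzb1* at 4240 CPM. The 27 cells with 6% to 8% that met every other condition had 19 *Xbp1* UMIs and *Mzb1* at 3957 CPM. At the cycle limit, 21 members had exactly 2 of the 6 genes while 51 cells with the same immunoglobulin and *Xbp1* had 1 and 81 had none. Within the gate, *Xbp1*, whose product drives the secretory program, varied from 2 to 76 UMIs per member, with a median of 16. Median *Xbp1* UMIs were 24, 19 and 26 in the WT libraries and 17, 9 and 20 in the HET libraries.

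The last condition of the rule was met by most of the remaining cells in all libraries but HET replicate 2. Of the cells that met the immunoglobulin and *Xbp1* conditions, the cycling share was 100%, 82.5% and 75.7% in WT replicates 1 to 3 and 94.1%, 45.4% and 75.5% in HET replicates 1 to 3. WT replicate 1 rests on 15 cells. The difference (HET minus WT) was -14.4 percentage points, and -1.26 without HET replicate 2. After thinning each cell to 5000 UMIs it was -8.23 points, and 4.73 without HET replicate 2, so the size and, after thinning, the sign rest on that library. These shares use the genes that chose the members and are given as a description. In plasma cells above the gate, the share was 0% to 33.3% by library, on 10 to 21 cells outside HET replicate 2 and 2.02% of its 1538 cells.

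The balance of cycle phases was compared by summed UMIs of a G2/M and an S phase list. The log2 ratio of G2/M to S phase UMIs was 0.17, 0.62 and 0.81 in WT and 0.72, 1.05 and 1.34 in HET. HET replicates 2 and 3 lay above every WT library, while HET replicate 1 lay inside the WT range. The difference was 0.51 (exact two-sided permutation p = 0.2), and cycling low-immunoglobulin B-cells of the same libraries differed by 0.09 (exact p = 0.6). Within replicate numbers 1 to 3, HET lay above WT by 0.55, 0.44 and 0.53 in members and by 0.19, 0.01 and 0.07 in cycling B-cells. The exact paired p was 0.25 for each, the smallest that 3 pairs allow, and the difference between members and B-cells was not tested. *Nusap1*, a spindle protein, was at 198, 231 and 207 CPM in WT and 266, 330 and 338 in HET. *Mcm5*, a subunit of the replicative helicase, was at 230, 226 and 267 CPM in WT and 218, 150 and 144 in HET. Neither passed adjustment in edgeR's quasi-likelihood test (both adjusted p = 0.97).

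The rule read the total of immunoglobulin RNA but not its class, and the class differed widely between libraries. Of the UMIs of 8 heavy chain constant genes, *Ighm* (IgM) took 24.9%, 32.2% and 42.4% in WT and 59.8%, 13.1% and 29.7% in HET. *Ighg1* (IgG1) took 31.5%, 48.3% and 32.3% in WT and 7.04%, 4.29% and 49.1% in HET. *Igha* (IgA) took 0.246%, 6.98% and 4.64% in WT and 1.72%, 73.6% and 8.28% in HET. HET replicate 2 alone was dominated by IgA, and HET replicate 1 was dominated by IgM with 25.8% *Ighg3*. The genotypes overlapped for each of these classes. The *Igha* difference of 23.9 points had an exact two-sided permutation p of 0.4, it was 1.04 points without HET replicate 2, and adjusted values over the 8 genes were 0.8 or above.

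Cells mostly carried 1 class. The most abundant heavy chain gene took a median of 98.3% to 99.7% of a member's heavy chain UMIs by library. By this gene, 71 members were IgA cells, 68 IgM cells and 92 IgG cells, and 1 was an *Ighd* cell of WT replicate 1. IgA cells numbered 1, 3 and 2 in the WT libraries and 1, 62 and 2 in the HET libraries. The IgA cell of WT replicate 1 rests on 3 *Igha* of 5 heavy chain UMIs, while the IgA cells of the other libraries had at least 93 *Igha* UMIs each. The largest IgA cell of HET replicate 2 held 5.1% of that library's *Igha* UMIs, so its IgA share did not come from a single cell.

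**Figure D2:**
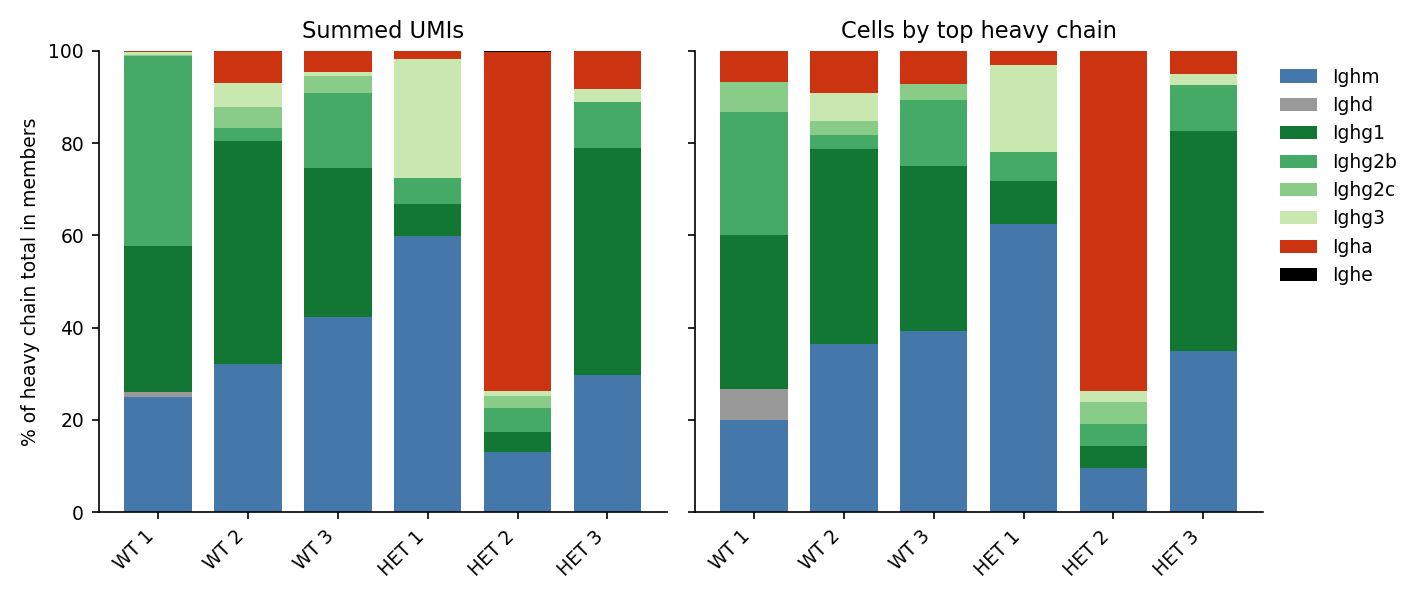
Share of each heavy chain constant gene in the members of each library, as summed UMIs (left) and as cells by their most abundant heavy chain gene (right), both in percent. Igha takes 73.6% of the UMIs and 73.8% of the cells in HET 2 and at most 8.28% and 9.09% in the other libraries.

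IgA members were compared with the remaining members. This split was chosen after values had been seen, and it used all 6 libraries, with the library as a block. Of 2306 genes tested by edgeR's quasi-likelihood test with Benjamini-Hochberg adjustment, 96 passed (4.16%), with 48 higher (2.08%) and 48 lower (2.08%) in IgA members. Outside HET replicate 2 a library gave 1 to 3 IgA cells, with the class of the 1 cell in WT replicate 1 set by 3 UMIs. Leaving out that library gave 105 of 3025 (3.47%), 51 higher (1.69%) and 54 lower (1.79%), and the 33 genes named for this comparison kept their direction and call. With the 4 libraries of at least 2 IgA cells, 113 of 3660 passed (3.09%), 58 higher (1.58%) and 55 lower (1.5%). With HET replicate 2 left out, 90 of 1415 passed (6.36%), 54 higher (3.82%) and 36 lower (2.54%).

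*Slpi*, a secreted inhibitor of leukocyte proteases and a marker given for these cells, was nearly missing from IgA members. It was at 0, 0 and 50.5 CPM in IgA members of WT replicates 1 to 3 and at 94.2, 199 and 0 CPM in those of HET replicates 1 to 3. In the other members it was at 24123, 12563 and 12474 CPM in WT and 8870, 5779 and 6528 CPM in HET. The values were far apart in every library. The adjusted p was 2.4e-135 by edgeR's quasi-likelihood test. Outside HET replicate 2 it rests on sums of 1 to 3 IgA cells, so its size is not read as a measure of spread between libraries. Of the 62 IgA cells of HET replicate 2, 21 had a *Slpi* UMI and these held 73 in all, whereas its 14 IgG cells held 773. Both IgM and IgG members carried the gene, at 1370 to 13345 CPM and 5831 to 24938 CPM by library.

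Other secretory genes were lower in IgA members by smaller amounts. *Mzb1* was at 1929, 5340 and 4995 CPM in IgA members and 9038, 10779 and 9090 CPM in the others of WT, and at 471, 8038 and 7589 against 9551, 11798 and 11124 CPM in HET. This was lower in all 6 libraries, with a log2 difference of -1.23 ± 0.16 (SE). Of 23 tested genes of ER folding, 8 were lower and none higher, with a median log2 difference of -0.65 against -0.07 over all tested genes. *Pdia6*, a disulfide isomerase, differed by -1.19 ± 0.19, *Creld2*, another isomerase, by -1.04 ± 0.22, and *Hspa5* by -0.67 ± 0.18. *Manf* differed by -0.92 ± 0.18, though it was at 4587 CPM in IgA members and 4542 CPM in others of HET replicate 3. Within HET replicate 2 the median IgA member had an immunoglobulin share of 26.9% and 8 *Xbp1* UMIs, and the median IgG member 21.5% and 11.5, both quantities that the gate read. The order was the opposite in WT replicate 1 for the immunoglobulin share and in HET replicates 1 and 3 for *Xbp1*, on 1 or 2 IgA cells each. Of 28 translocation and glycosylation genes 2 were lower, *Ssr2* and *Dad1*, and of 10 ER degradation genes 1 was lower, *Herpud1* (adjusted p = 0.076 without HET replicate 2).

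Antigen presentation was lower as well. Of 6 tested MHC class II genes 5 were lower and none higher, with a median log2 difference of -1.06. One of them, the peptide loading chain *H2-DMb2* (-1.51), did not pass without HET replicate 2 (adjusted p = 0.14). *H2-Aa*, an alpha chain of the MHC class II molecule, was at 386, 272 and 505 CPM in IgA members of WT against 1347, 1526 and 1695 CPM in the others. In HET it was at 2731, 659 and 566 against 1767, 2129 and 1713 CPM, so the single IgA cell of HET replicate 1 went the other way. *Mef2b*, a transcription factor of GC B-cells, was at 0 in IgA members of 4 libraries and at 53.4 to 469 CPM in the others.

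Of 5 tested genes of the migration list 3 were higher in IgA members and none lower. *Itgb7*, the beta chain of the integrin that binds the gut vessel addressin, was at 386, 634 and 353 CPM in IgA members of WT against 7.57, 8.87 and 28 CPM in the others. In HET it was at 848, 425 and 680 against 77.3, 113 and 56.8 CPM, a log2 difference over all libraries of 3.48 ± 0.37. Its partner chain *Itga4* differed by 1.31 ± 0.36, although the IgA cell of HET replicate 1 had none. *Klf2*, a factor that controls lymphocyte trafficking, differed by 2.64 ± 0.26. *Ccr10*, a chemokine receptor known on IgA plasma cells, was too sparse for the fit. It had a UMI in 55 of 62 IgA cells and 5 of 22 other members of HET replicate 2, and in 4 of the 9 IgA cells of the other libraries.

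*Tnfrsf17*, which encodes BCMA, a receptor for plasma cell survival factors, was at 659 to 1416 CPM in IgA members and 45.4 to 200 CPM in others, with no overlap. *Crip1*, a small LIM domain protein, was at 8174 to 36566 CPM against 917 to 2544 CPM, with the lowest IgA value above the highest of the others. *Pycard*, the inflammasome adaptor ASC, was at 3784 to 5883 CPM against 429 to 755 CPM. *Anxa2* and *S100a10*, which form an annexin complex at membranes, were the highest by this measure, 4.37 ± 0.30 and 4.0 ± 0.26 on the log2 scale. The 5 lowest genes of those that moved the same way in every library were *Slpi*, *Ly6a*, *Tpst1*, *Endou* and *Mef2b*, with log2 differences of -6.08, -2.41, -2.20, -2.11 and -2.07. *Tpst1* kept its sign but lost its call without HET replicate 2 (adjusted p = 0.12). The regulators *Prdm1* (0.07, adjusted p = 0.99) and *Irf4* (0.72, adjusted p = 0.48) did not pass, and no S phase, G2/M or cohesin gene passed among 22, 25 and 5 tested.

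**Figure D3:**
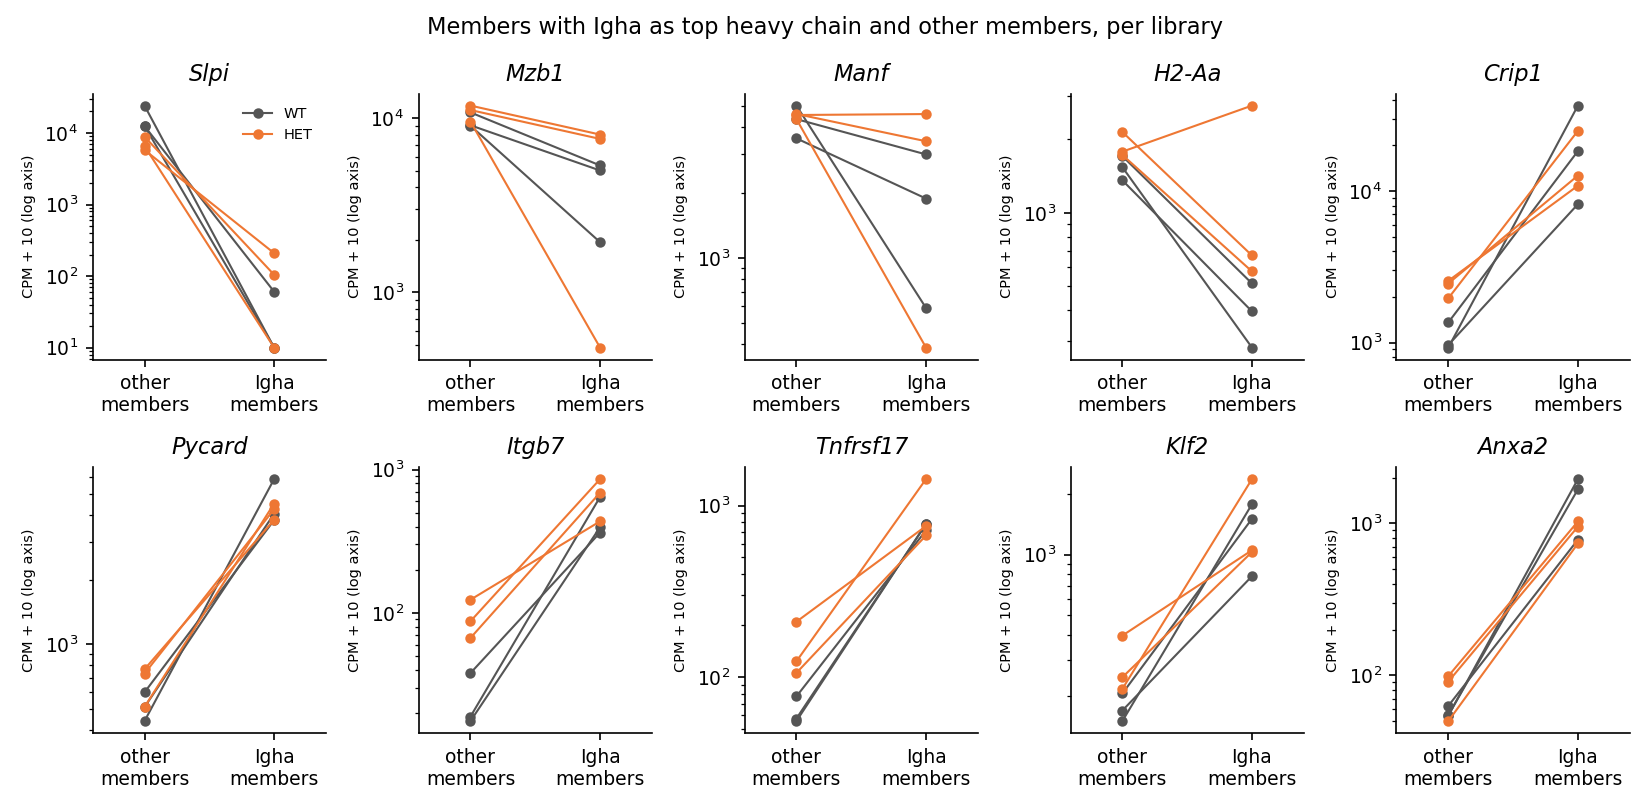
Level of 10 genes in the members whose most abundant heavy chain gene is Igha (right of each panel) and in all other members (left), with a line for each library, gray for WT and orange for HET. The vertical axis is CPM + 10 on a log scale, and IgA members number 1, 3, 2, 1, 62 and 2 from WT 1 to HET 3. Slpi and Mzb1 fall and the 6 genes from Crip1 to Anxa2 rise in every library, while Manf and H2-Aa do not fall in 1 library each.

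The genotypes were then compared within all members. The targeted gene *Smc3* was at 115, 151 and 122 CPM in WT and 118, 135 and 126 CPM in HET, and the ranges overlapped. The libraries count 3′ ends, which lie outside the exon that was targeted, so this level does not check the deletion. The other core subunits differed little: the log2 difference was 0.09 ± 0.26 for *Smc1a*, -0.02 ± 0.22 for *Rad21*, 0.13 ± 0.33 for *Stag1* and -0.11 ± 0.31 for *Stag2*, and each of these signs turned under some alternative. Of 4541 genes, 0 passed edgeR's quasi-likelihood test at an adjusted p of 0.05. At an unadjusted p below 0.05 there were 232 genes (5.11%), and DESeq2 gave 83 with 0 past adjustment. The libraries of the genotypes did not overlap for 501 genes (11%), with HET above WT for 240 (5.29%) and below for 261 (5.75%).

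Libraries of equal replicate number were taken as pairs, although the labels do not say what a number marks. Pair 1 joins a library placed with male mice and a library placed with female mice. With the number as a block 13 genes passed (0.286%), 9 higher (0.198%) and 4 lower (0.0881%) in HET. Higher were *Ccr10*, *Itgb7*, *Tnfrsf17*, *Crip1*, *Emp3*, *Rnase6*, *Ifi27l2a*, *Slfn2* and *B2m*. Lower were *Slpi*, *Tmem52*, *Ddt* and the long noncoding RNA *AC160336.1*. Among them are *Ccr10*, *Itgb7*, *Tnfrsf17*, *Crip1* and *Slpi*, whose values by class stand above, and 62 of the 71 IgA members belong to HET replicate 2. *Ccr10* was at 6.38, 28.8 and 16.1 CPM in WT and 33.3, 348 and 80.3 CPM in HET, with HET replicate 2 far above the rest (3.11 ± 0.33 with the block, adjusted p = 3.3e-05 in edgeR). *Slfn2*, a gene of lymphocyte quiescence, was at 6.38, 9.61 and 27.6 CPM against 81.7, 49.97 and 96.8 CPM, and here HET replicate 2 was the lowest of its genotype. *Tmem52* was at 63.8, 31.2 and 43.7 CPM against 15.1, 1.67 and 6.18 CPM, and in cycling B-cells at 6.04, 6.73 and 6.21 against 3.95, 0.71 and 2.91 CPM. Without HET replicate 2 the block left 1 gene of 4827 (0.0207%), *Slpi*, in a fit with 1 residual degree of freedom.

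*Slpi* was at 20344, 10209 and 10267 CPM in WT and 7297, 1564 and 5448 CPM in HET. Every HET library was below every WT library, and HET replicate 2 was the lowest. In cycling B-cells *Slpi* had a UMI in 33.0%, 26.7% and 28.7% of WT and 20.7%, 19.8% and 16.6% of HET cells, also without overlap, while its level there overlapped, at 152, 91.3 and 90.9 CPM in WT and 79.0, 109 and 46.8 CPM in HET. The log2 difference was -1.51 ± 0.49 (adjusted p = 0.97) without the block and -1.69 ± 0.21 (adjusted p = 0.00036) with it. With the block and without HET replicate 2 it was -1.18 (adjusted p = 0.0037), all by edgeR's quasi-likelihood test. In that last fit WT replicate 2 has no HET partner, so the estimate rests on replicates 1 and 3, with 1 residual degree of freedom. In IgM members alone *Slpi* was at 13345, 7520 and 10446 CPM in WT and 6459, 1370 and 4486 CPM in HET, again without overlap, on 3 cells in WT replicate 1 and 8 in HET replicate 2. Those 3 cells held 532, 6 and 0 *Slpi* UMIs, so the value of WT replicate 1 rests on 1 cell. Of the 8 cells, 1 held 62 *Slpi* UMIs and no other more than 20. In IgG members *Slpi* was at 24938, 11396 and 9873 CPM against 9877, 6241 and 5831 CPM, where HET replicate 1 and WT replicate 3 were level. A single IgG cell of WT replicate 1 held 1426 of the 3187 *Slpi* UMIs of all members of that library. Values by class are CPM without TMM factors.

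With the IgA members left out, 0 of 3956 genes passed without the block (212 at an unadjusted p below 0.05) and 9 passed with it (0.228%), 8 higher (0.202%) and 1 lower (0.0253%). The block without HET replicate 2, with IgA members kept, had 0 of 4827 genes higher. No fit left out both. The 1 lower gene was *Slpi* at -1.16 ± 0.11. *Ifi27l2a*, an interferon-induced gene, was higher by 1.93 ± 0.20, at 39.1, 87.0 and 101 CPM in the WT and 211, 313 and 353 CPM in the HET members outside IgA. In cycling B-cells *Ifi27l2a* was also without overlap, at 106, 197 and 206 CPM in WT and 334, 254 and 353 CPM in HET. The same held in T cells, at 890, 788 and 1017 against 1442, 1067 and 1411 CPM. In plasma cells above the gate the genotypes overlapped, at 309, 283 and 745 CPM in WT and 1337, 147 and 1112 CPM in HET. They also overlapped in non-cycling cells of the gate. *Crip1* was higher by 1.12 ± 0.12, at 1160, 749 and 769 CPM against 2244, 1909 and 1576 CPM, also without overlap. *Emp3*, a membrane protein, was higher by 1.44 ± 0.23 and *Plac8* by 2.11 ± 0.36. Outside IgA *Plac8*, a small protein of leukocytes, was at 26.1, 21.7 and 18.03 CPM in WT and 224, 93.9 and 39.9 CPM in HET, and the 69 UMIs of HET replicate 1 lay in 5 of 31 cells. *B2m*, *H2-K1* and *H2-D1*, the light chain and heavy chains of MHC class I, were higher by 0.77 ± 0.13, 0.66 ± 0.12 and 0.63 ± 0.11. *Tmsb4x*, an actin-binding peptide, was higher by 0.74 ± 0.13. *Itgb7* (2.20 ± 0.50) and *Tnfrsf17* (1.29 ± 0.30) kept their direction but did not pass (both adjusted p = 0.17).

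*Psat1*, *Ldha* and *Nop56* are examples from the 501 genes (11%) whose libraries did not overlap, and they missed both thresholds. *Psat1*, an enzyme of serine synthesis, was at 160, 120 and 140 CPM in WT and 66.6, 70.0 and 65.9 CPM in HET (log2 difference -1.02 ± 0.22, adjusted p = 0.71, and 0.063 with the block). *Ldha*, lactate dehydrogenase, was at 945, 853 and 974 CPM against 584, 530 and 791 CPM. *Nop56*, a factor of ribosome assembly, was at 192, 161 and 173 CPM against 106, 115 and 122 CPM. No list had a member past the threshold without the block. Of the S phase list 3 of 29 genes had a positive difference (median -0.29), of the G2/M list 30 of 35 (median 0.24), of the Myc and ribosome biogenesis list 3 of 19 (median -0.33), and of the ER degradation list 11 of 11 (median 0.20), against a median of -0.01 over all genes. Of the 8 genes of the PERK and ATF4 list 1 had a positive difference (median -0.48), of the GC list 2 of 8 (median -0.29), of amino acid uptake and glycolysis 3 of 9 (median -0.22) and of migration 8 of 10 (median 0.29). Positive differences were 10 of 17 for plasma cell identity, 14 of 24 for ER folding, 18 of 29 for translocation, 8 of 20 for vesicle transport, 7 of 10 for B-cell identity, 5 of 8 each for MHC class II and apoptosis and 3 of 12 for cohesin, with medians from -0.04 to 0.11. Of 6 tested genes that the study names, which is no independent list, 4 were positive (median 0.25). These counts describe the libraries.

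**Figure D4:**
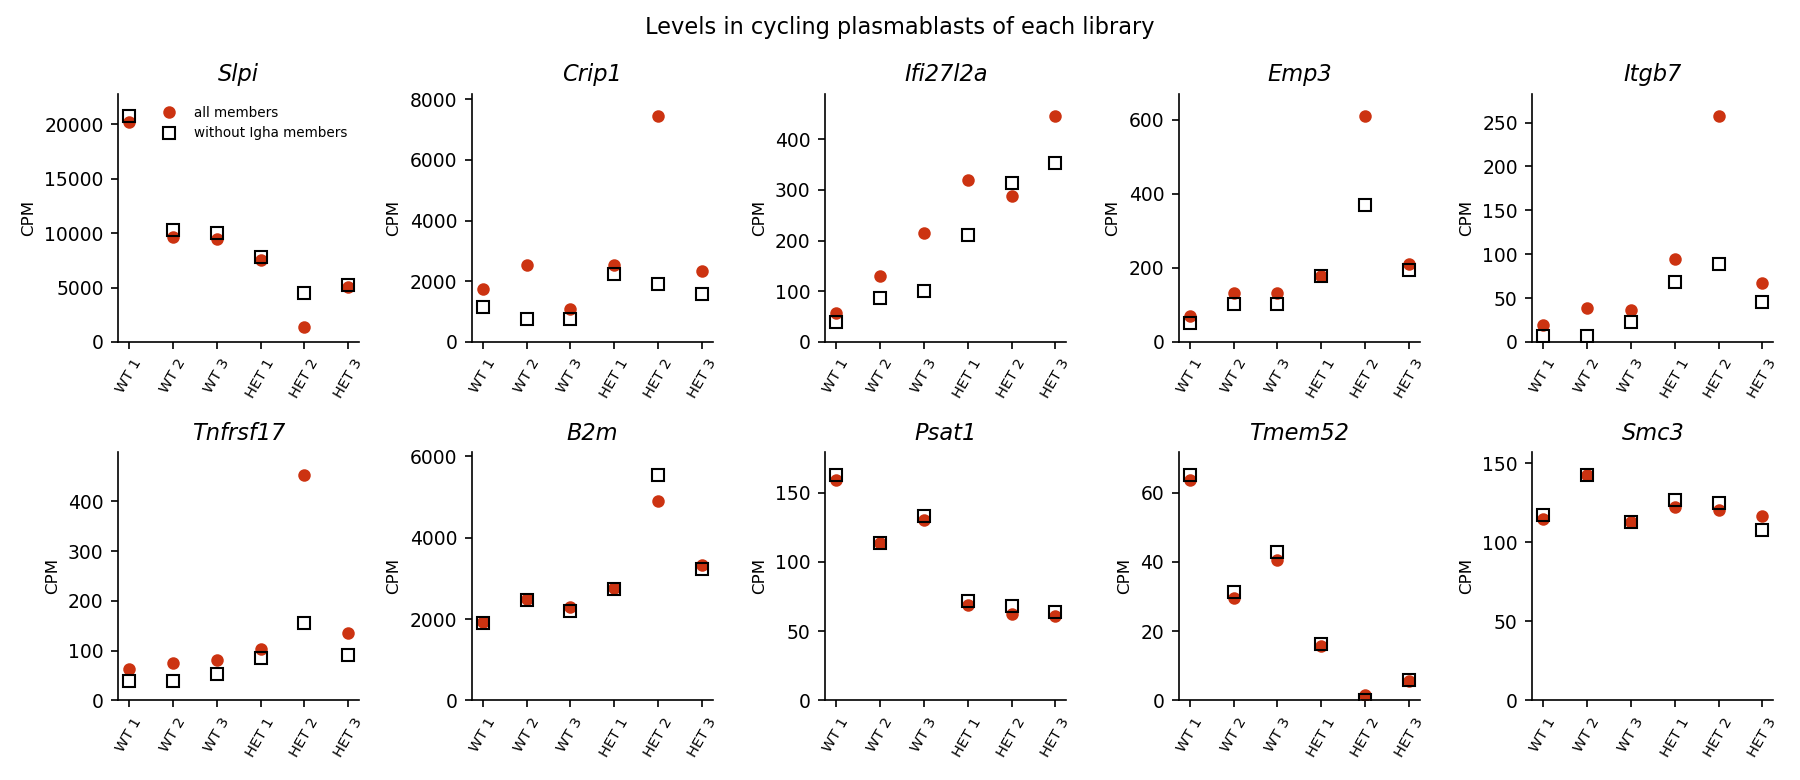
Level of 10 genes in cycling plasmablasts of each library, as CPM of all UMIs outside the genes the rule read, for all members (red) and without the members whose top heavy chain is Igha (open squares). Slpi and Psat1 are lower and Ifi27l2a is higher in all HET libraries in both, Itgb7 and Tnfrsf17 of HET 2 drop toward the other libraries once Igha members are left out, and Smc3 overlaps.

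To place the members, they were compared with 3 other populations of the same libraries. The gate used immunoglobulin, *Xbp1* and cycle genes to separate them, and other genes of secretion or division move with those, so these counts are descriptions from which no test of the members is read. The nearest dividing cells were 8640 cycling B-cells with a low immunoglobulin share. Against them, with the library as a block, 1751 of 6824 genes were higher (25.7%) and 1735 were lower (25.4%) in members. That is 51.1% of genes in either direction. Without HET replicate 2, 1961 of 7546 were higher (26%) and 1988 lower (26.3%), and after thinning all cells of the 6 libraries to 5000 UMIs 41.1% of 4742 genes passed (20.9% higher, 20.1% lower).

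The secretory apparatus separated the populations as a whole. All 24 ER folding genes were higher, with a median log2 difference of 3.26, as were 28 of 29 genes of translocation and glycosylation (median 2.62), 12 of 12 of ER degradation (median 2.39) and 20 of 20 of vesicle transport (median 2.10). *Hspa5* was at 4099, 3279 and 2626 CPM in WT and 3879, 3478 and 4256 CPM in HET members, against 274 to 570 CPM in cycling B-cells. *Hsp90b1*, the ER chaperone GRP94, was at 6868 to 10046 CPM against 143 to 521 CPM. *Pdia4*, another isomerase, was at 628 to 1446 CPM against 10.3 to 70.7 CPM. *Lman1*, a cargo receptor between ER and Golgi, was at 715 to 991 CPM against 35.7 to 48.6 CPM. The 6 libraries of each population did not overlap for any of these genes.

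Xbp1 and ATF6, the factors that raise ER chaperones, are known to bind short elements in their promoters. The ER stress element (ERSE), CCAAT and CCACG with 9 bases of any kind between them, searched on both strands from 250 bases before to 50 after the start site, was present in 37 of 27025 RefSeq promoters of mouse assembly GRCm38.p6 (0.137%). It was in 7 of the 20 ER folding genes matched to that table (35%) and in 2 of 10 matched ER degradation genes. The shorter ERSE-II, ATTGG and CCACG with 1 base between them, was in 12 promoters overall and 1 ER folding gene (*Dnajb11*), and TGACGTGG, the core of the element that Xbp1 binds, in 193 (0.714%) and 2. A match describes letters and does not show a bound site. The elements are printed because these genes were higher together in members. Each is written in the direction of the motif, with its fixed letters in capitals.
Hspa5, 65 bases before the start site: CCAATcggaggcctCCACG
Hsp90b1, 107 bases before: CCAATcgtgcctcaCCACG
Hsp90b1, 212 bases before: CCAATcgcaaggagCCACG
Calr, 162 bases before: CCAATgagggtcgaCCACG
Canx, 145 bases before: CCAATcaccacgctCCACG
Pdia6, 98 bases before: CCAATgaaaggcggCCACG
Dnajc3, 105 bases before: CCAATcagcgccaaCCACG
Creld2, 126 bases before: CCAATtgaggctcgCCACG
Derl3, 156 bases before: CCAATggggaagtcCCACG
Syvn1, 44 bases before: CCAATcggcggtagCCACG
Dnajb11 (ERSE-II), 7 bases after: ATTGGcCCACG
Herpud1 (ERSE-II, ER degradation), 52 bases before: ATTGGgCCACG

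The 150 bases before the *Hspa5* start site, on the plus strand at chr2:34771940-34772089 of GRCm38.p6, are printed with the element in capitals.
Hspa5 promoter: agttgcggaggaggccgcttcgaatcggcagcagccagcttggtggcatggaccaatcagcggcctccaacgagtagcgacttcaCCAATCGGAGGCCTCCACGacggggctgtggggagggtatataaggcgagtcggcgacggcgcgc

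Of the genes of plasma cell identity 16 of 17 were higher than in cycling B-cells (median 4.13). *Sdc1* was at 126 to 221 CPM in members and 0.279 to 2.28 CPM in cycling B-cells, and *Prdm1* at 50.7 to 85.4 CPM against 0.406 to 2.28 CPM. *Irf4* was at 48.1 to 193 CPM against 2.56 to 19.8 CPM, with the highest value of both populations in HET replicate 2. *Bhlha15*, the secretory cell factor Mist1, had 2 UMIs in all cycling B-cells, and *Hid1*, a gene of secretory granules, had 1.

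B-cell and GC genes were lower. Of the B-cell identity list 17 of 18 were lower (median -2.47), and of the GC list 13 of 14 (median -2.11), with *Gpr183*, a receptor for oxysterols that guide B-cells, the 1 gene of the latter that was higher (1.68). *Bach2* was at 0 to 15.3 CPM against 47.1 to 163 CPM, and *Pax5* at 2.53 to 17.5 against 82.4 to 125 CPM. The 10 MHC class II genes were all lower (median -0.98). The steepest was *Ciita*, the activator of the class II genes, at 0 to 9.62 CPM against 83.4 to 116 CPM. *Cxcr5*, a chemokine receptor of the follicle, was lower (-2.73 ± 0.35), and *Cxcr4*, the dark zone receptor, did not pass (-0.67 ± 0.29, adjusted p = 0.064) unless HET replicate 2 was left out (-0.97, adjusted p = 0.0056). *Myc*, a transcription factor of cell growth induced in selected GC cells, was at 12.1 to 54.5 CPM in members and 19.4 to 51.6 CPM in cycling B-cells, and did not pass (adjusted p = 0.74).

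Cycle genes were compared too, although both populations were chosen by the same 6 division genes. Of 29 S phase genes 4 were higher and 17 lower (median -0.39), and of 36 G2/M genes 4 were higher and 12 lower (median -0.10). *Uhrf1*, which maintains DNA methylation in S phase, was at 35.01 to 69.5 CPM against 106 to 138 CPM, and *Ccne1*, cyclin E1, at 77.2 to 196 against 34.9 to 50.4 CPM. Neither overlapped. Of 15 cohesin genes 6 were lower and none higher (median -0.39), led by *Esco2*, the S phase acetyltransferase of Smc3, at 41.7 to 106 CPM against 85.1 to 172 CPM, where the ranges overlapped. *Smc3* itself did not pass (-0.18 ± 0.11, adjusted p = 0.16). *Srm*, a polyamine synthase and Myc target, was higher (2.20 ± 0.16), and the 21 genes of Myc and ribosome biogenesis split into 6 higher and 5 lower. Of the 8 genes of the PERK and ATF4 arm 5 were higher, among them *Phgdh* and *Asns*, enzymes of serine and asparagine synthesis, by 1.29 ± 0.10 and 1.75 ± 0.19. Of 13 migration genes 9 were higher and 2 lower, and of 10 apoptosis genes 3 were higher and 3 lower, with the death factor *Bcl2l11* at 3.08 and *Bcl2a1d*, a survival gene with near-identical copies, at -2.73. Of 11 genes of amino acid uptake and glycolysis 6 were higher and 1 lower.

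**Figure D5:**
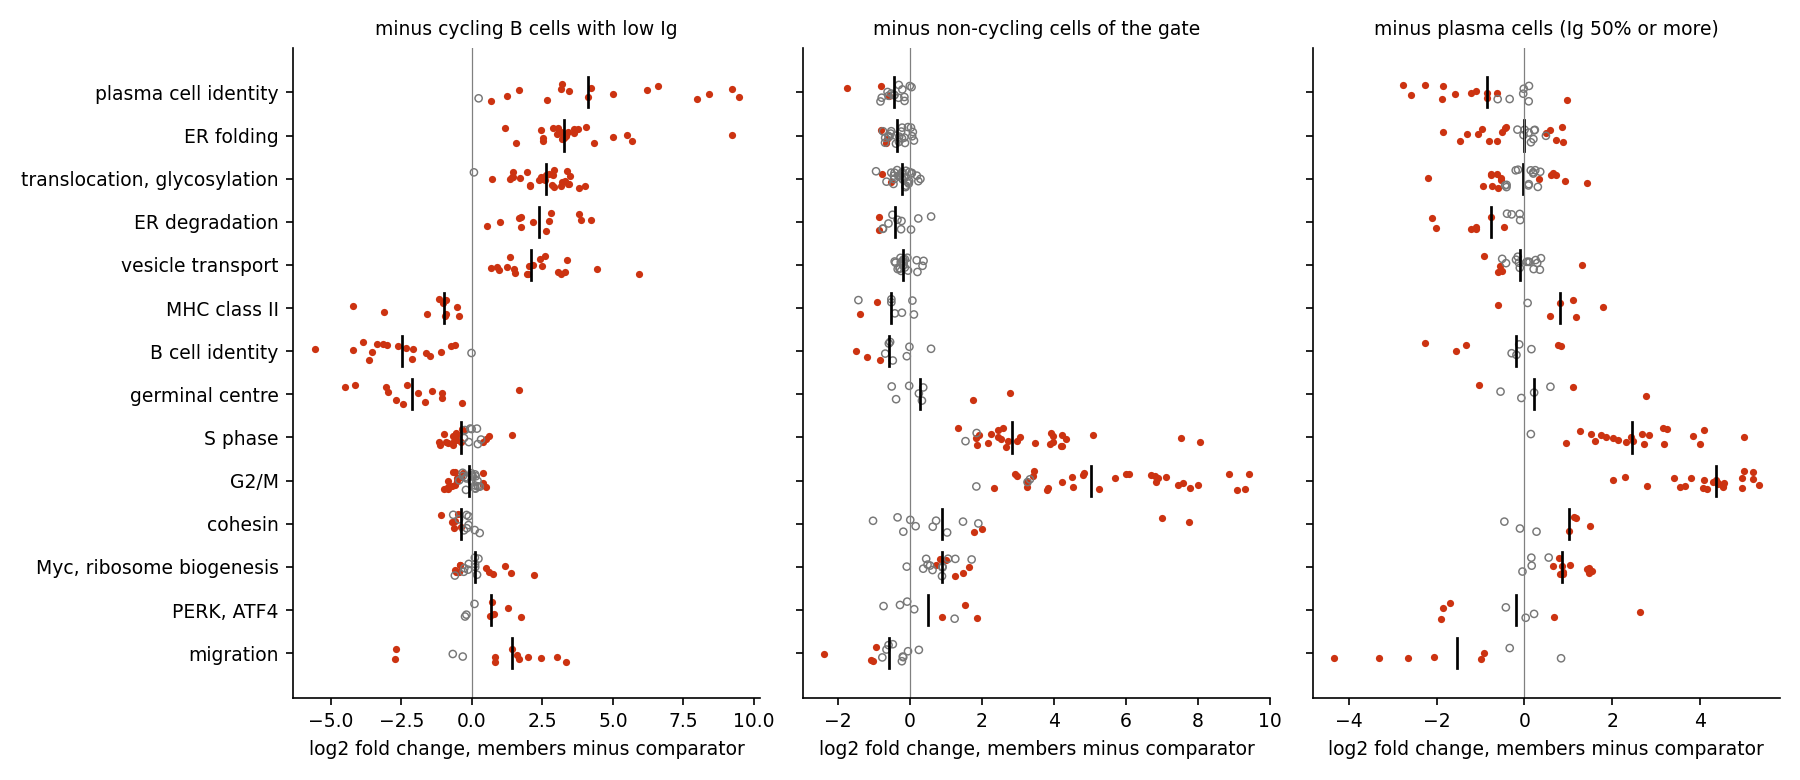
Log2 fold change of each tested gene of 14 lists in members against cycling low-immunoglobulin B-cells (left), non-cycling cells of the same gate (middle) and plasma cells with at least 50% immunoglobulin RNA (right). Filled red points passed edgeR's adjusted p of 0.05, open gray points did not, and black bars are medians. ER folding has a median of 3.26 on the left and -0.01 on the right, and the cycle lists reach medians of 2.45 and 4.38 on the right.

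Plasma cells above the gate were the next comparison, with 1618 cells of which 1538 came from HET replicate 2. Of 3007 genes tested with the library as a block 1245 passed (41.4%), 671 higher (22.3%) and 574 lower (19.1%) in members. Thinning to 5000 UMIs gave 42.7% of 1186 genes (21.9% higher, 20.8% lower), on 5 libraries, since HET replicate 1 kept under 10 plasma cells. Leaving out HET replicate 2 gave 823 of 1813 (45.4%), 444 higher (24.5%) and 379 lower (20.9%). The ranges of ER chaperones overlapped: *Hspa5* was at 2625 to 4280 CPM in members and 2749 to 6684 CPM in plasma cells, *Mzb1* at 7940 to 9909 against 6405 to 12311 CPM, and neither passed (adjusted p = 0.94 and 0.95). *Manf* was higher by 0.50 ± 0.14. Of 24 ER folding genes 5 were higher and 10 lower (median -0.01).

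Other parts of the plasma cell program were below that level. Of 18 identity genes 1 was higher and 11 lower (median -0.86). *Sdc1* was at 125 to 221 CPM in members and 507 to 1781 CPM in plasma cells, *Cd28* at 59.8 to 132 against 225 to 625 CPM, and *Tnfrsf17* at 65.9 to 520 against 305 to 1136 CPM. ER degradation followed, with 7 of 11 genes lower and none higher. *Edem2*, which trims mannose from misfolded proteins, was at 330 to 554 CPM against 1440 to 2667 CPM, and *Sel1l*, the adaptor of the ER ubiquitin ligase, at 140 to 235 against 375 to 964 CPM. *Bcl2*, the survival factor, was at 0 to 25.6 CPM against 83.3 to 185 CPM. The 1 higher identity gene was *Slpi* (0.97 ± 0.33, adjusted p = 0.020), which was higher in 5 libraries and lower in HET replicate 2, at 1600 against 7115 CPM. Homing genes were also lower, 6 of 8, with *Ccr10* at 6.59 to 356 CPM in members and 305 to 1204 CPM in plasma cells.

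Biosynthesis and antigen presentation were above plasma cell level. Of 15 tested genes of Myc and ribosome biogenesis 11 were higher and none lower, such as *Npm1*, nucleophosmin, at 629 to 1334 CPM against 125 to 577 CPM. Of 7 MHC class II genes 5 were higher and 1 lower, and *H2-Aa* was at 956 to 1633 against 125 to 1013 CPM, where the ranges met. *Ldha* was at 542 to 1020 CPM against 125 to 383 CPM. Of 7 cohesin genes 4 were higher, *Smc1a* (1.5), *Rad21* (1.19), *Ctcf* (1.13) and *Smc3* (1.02 ± 0.28), and none was lower. Plasma cell sums were near the floor outside HET replicate 2, at 0 to 9 UMIs per library for *Smc1a*, 2 to 6 for *Rad21* and 0 to 7 for *Smc3*. The largest differences downward were *Prg2*, *Cst6*, *Ly6c2*, *Tmem176a* and *Trf*, by -5.77, -5.49, -4.33, -4.19 and -3.99. *Prg2* reached 3584 CPM in plasma cells of HET replicate 2 and 204 to 958 CPM in the others, against 9.97 to 23.9 CPM in members.

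The closest comparison was with 132 cells of the same gate that had fewer than 2 of the 6 division genes detected, called non-cycling here. Of these, 51 had 1 of the genes, with a median of 7898 UMIs, and 81 had none, with a median of 5928. Only HET replicates 2 and 3 had at least 10 of both, which leaves 1 residual degree of freedom, and 101 of the 132 came from HET replicate 2. Of 4646 genes 445 passed (9.58%), 331 higher (7.12%) and 114 lower (2.45%) in members. With the 4 libraries of at least 5 cells 781 passed (18.8%), 520 higher (12.5%) and 261 lower (6.27%), and 263 passed once HET replicate 2 was left out of these. Of 24 ER folding genes 3 were lower and none higher (median -0.34), and of 17 identity genes 3 were lower and none higher (median -0.44), against a median of 0.04 over all genes.

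*Mzb1* was at 7328 and 9141 CPM in members of HET replicates 2 and 3 and at 12322 and 12081 CPM in their non-cycling counterparts (-0.58 ± 0.14). *Hspa5* and *Manf* did not pass (-0.05 ± 0.17 and 0.07 ± 0.17). *Cd28* was at 76.1 and 61.1 against 219 and 283 CPM. Of 18 biosynthesis genes 6 were higher and none lower, such as *Ranbp1*, a regulator of nuclear transport, at 648 and 739 against 242 and 151 CPM. Of 13 migration genes 4 were lower, among them the integrin chain *Itgb1* at 34.2 and 41.4 against 126 and 339 CPM. *Apoe*, which is abundant in macrophages, had the lowest log2 difference (-3.17 ± 0.34), at 37.3 and 136 against 134 and 2111 CPM, and 174 genes in all passed once cells with at least 10 myeloid or erythroid UMIs were left out. Of 14 cohesin genes 4 were higher, among them *Smc1a* (2.02 ± 0.42) and *Rad21* (1.78 ± 0.45). In the non-cycling cells of HET replicates 2 and 3 *Smc1a* had 14 and 3 UMIs and *Rad21* 13 and 2. The others, *Esco2* and *Cdca5*, were at 0 UMIs there and passed the low-count filter only through the members. Their calls are not read as a result. Of the apoptosis list 2 of 8 were lower, *Bcl2* (-1.85) and *Mcl1* (-0.95), both survival factors. *Smc3* was at 126 and 120 CPM against 56.7 and 75.4 CPM and did not pass (1.04 ± 0.39, adjusted p = 0.093).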

How the data were processed

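Per the labels, the 6 libraries were made by 10x Chromium gene expression and processed with Cell Ranger against mm10, with Seurat 4.0.0 under R 4.0.2 for later steps that were not used here. The deposited counts are whole UMIs per gene and barcode, not normalized. UMIs were summed per library and class and compared in edgeR 4.0.16 by its quasi-likelihood test, after filterByExpr and with TMM factors, with p-values adjusted by Benjamini-Hochberg at 0.05. A class needed at least 10 cells in a library, except the IgA comparison, which took 1 or more. The 406 features that the rule reads were left out of tests and library sizes. CPM values are those of the fit in question. Genotype was fitted without a covariate, and comparisons between classes had the library as a block.

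Replicate numbers were shared by the genotypes. Deviations from the genotype means correlated at 0.24, 0.18 and 0.13 for equal numbers over 4541 genes, all above the 0.1 taken as pairing, and the labels do not say what a number marks.

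The members and lists were chosen with earlier results of these data known. Named genes were the markers, Prdm1, Irf4, Pax5, Bcl6, Bach2, Myc, Sdc1, Cxcr4, 5 cohesin subunits, heavy chain genes, up to 4 genes per list by size of change, and the 5 highest and 5 lowest that passed the same way in every library. From these the text takes a selection, and 1 gene of the rule is not reported here. Genes that passed with the replicate block or without IgA members, and Gpr183, were also named after their values were seen. The IgA comparison, the fits without IgA members, thinned gene fits, the fit over libraries with at least 5 cells, the block without HET replicate 2, differences within replicate numbers, the cycling share of gate cells without each library and the fit without myeloid-rich cells were chosen once the data were known. Alternatives were DESeq2 1.42.0, RLE size factors, no low-count filter, rule genes kept, doublets removed, narrower gates, thinning, the block, sex, and leaving out each library.

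The fits were tested on simulated counts. Intervals are exact 95% binomial intervals and cover counting error only.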

Additional observations from a re-analysis of the deposited data

How the results depend on the processing

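With the replicate block 13 genes passed between genotypes, 56 without the low-count filter (45 higher, 11 lower), 9 with the block and without IgA members, and 1 with the block and without HET replicate 2. The 15 other alternatives gave 0. The IgA comparison gave 215 genes without the filter, and DESeq2 gave 66. Leaving out 1 library each gave 71 to 105, and the 33 genes named for it kept their sign under every alternative run. Against non-cycling cells 69 genes passed with DESeq2, 295 with Xbp1 from 3 UMIs, 174 without myeloid-rich cells, 314 without the filter, 180 without the library as a block and 781 with 4 libraries, and leaving out 1 of those 4 gave 263 to 705. Leaving out a library of the main fit could not be fitted with 2 libraries. Thinning to 5000 UMIs gave 1948 genes against cycling B-cells and 507 against plasma cells (on 5 libraries, without HET replicate 1, which unthinned gave 1291), where leaving out 1 library gave 823 (HET replicate 2) to 1378 (WT replicate 1). Beyond these the cause was not tested.

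Leaving out members with 2 or more UMIs of other cell types' markers left 3, 2, 2, 3, 10 and 1 cells, so gene tests could not be fitted. On those cells the genotype difference in class turned to -5.03 points for Ighm, 0.0 for Ighd, 20.6 for Ighg1, 0.013 for Ighg2c and -8.51 for Ighg3, and the log2 G2/M to S ratio to -0.512. Leaving out 1 library each gave -11.7 to 11.6 points for Ighm, -0.635 to 0.0011 for Ighd, -0.249 to 12.1 for Ighg3 and -0.0014 to 0.124 for Ighe. Without HET replicate 2 the thinned cycling share of gate cells turned to 4.73 points, within -20.0 to 4.73 on leaving out 1 library each. Beyond the counts and calls given in the text, the block changed no other call.

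Small log2 differences, none of them called, turned sign. Between genotypes, leaving out 1 library each gave -0.105 to 0.0907 for Smc3, -0.107 to 0.285 for Smc1a, -0.135 to 0.0648 for Rad21, -0.148 to 0.589 for Stag1, -0.242 to 0.0739 for Stag2, -0.0388 to 0.135 for Mzb1, -0.132 to 0.106 for Manf, -0.0834 to 0.344 for Prdm1 and -0.173 to 0.893 for Irf4. With immunoglobulin from 12% the difference was 0.104 for Smc3, -0.0073 for Smc1a, -0.0783 for Mzb1 and -0.0981 for Prdm1. With the block and without HET replicate 2 it was 0.0513 for Smc3, 0.0983 for Manf, -0.0589 for Prdm1 and -0.0768 for Irf4. Without myeloid-rich cells it was 0.067 for Rad21 and 0.0811 for Manf, and with sex as a covariate 0.0142 and 0.0200. Without IgA members it was -0.0182 for Smc1a, 0.0139 for Rad21 and 0.0682 for Manf, and with the block as well 0.0691 for Rad21, 0.0837 for Manf and 0.108 for Stag2. Manf was at 0.0042 without the low-count filter.

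Against non-cycling cells Hspa5 was at 0.11 without the filter, and Stag2 at -0.173 with DESeq2, -0.156 without myeloid-rich cells and -0.132 with 4 libraries. Leaving out 1 of the 4 gave -0.249 to 0.0499 for Hspa5, -0.0798 to 0.107 for Manf (with -0.0500 and -0.0121 between), -0.424 to 0.587 for Mef2b (with -0.327) and -0.94 to 0.266 for Stag2 (with -0.269). Against cycling B-cells Myc ranged from -0.353 to 0.0254 on leaving out 1 library, and Rad21 was at 0.0060 after thinning. Against plasma cells Mzb1 and Hspa5 were at 0.0409 and 0.0366 with RLE factors, 0.0392 and 0.0414 with DESeq2 and 0.409 and 0.399 without the filter, where Stag1 was at 0.143. Mzb1 was at 0.179 with immunoglobulin from 12%, and Hspa5 at 0.0024 with Xbp1 from 3 UMIs. Leaving out 1 library gave -0.0800 to 0.0575 for Mzb1, -0.207 to 0.13 for Hspa5 and -0.163 to 0.127 for Stag1.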

Other observations

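Light chain use was nearly all kappa: lambda exceeded kappa in 1, 1 and 0 members of WT replicates 1 to 3 and in 2, 1 and 3 members of HET replicates 1 to 3.

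*Rgs13*, a brake on chemokine receptor signals, was at 67.6 to 133 CPM in 5 libraries and at 3.48 CPM in HET replicate 2, against 111 to 824 CPM in cycling B-cells. *Bcl2l11*, which encodes the death factor BIM, was at 128 to 183 CPM in members of WT replicates 2 and 3 and HET replicates 1 and 3 and at 25.3 and 8.71 CPM in WT replicate 1 and HET replicate 2, against 9.10 to 19.2 CPM in cycling B-cells.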
